A study of Oryza sativa with 12 samples.

Results

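Shoots of 2 gibberellin-insensitive dwarf lines of rice, the receptor mutant gid1-3 and the F-box mutant gid2-1, were compared with each other on an Affymetrix rice array. The comparison took the 3 arrays titled gid1-3 and the 3 titled gid2-1, which were 6 of the 12 arrays of the study, and every probe set other than the array's controls. Both mutants were in the background of the cultivar Taichung 65 (T65), and plants of all lines were grown in a greenhouse and sampled 5 weeks after germination. The other arrays were 3 of T65 itself, the untreated and unmutated control, and 3 of slr1 (k1001), also in T65. The slr1 arrays entered the model's estimate of spread and are otherwise not described. Each line was 1 allele. The labels name the 3 arrays of a line biological replicates and say no more about how many plants each holds, so p values measure only the spread between these samples. The labels also give no lesion of an allele, no hour of harvest and no batch.

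Gibberellin is a growth hormone of shoots. It is bound in the nucleus by the soluble receptor GID1, and the receptor with its hormone then binds the DELLA protein SLR1, a repressor of growth. GID2 is the F-box subunit of the ubiquitin ligase that marks this bound SLR1 for degradation. Loss of either step leaves a dwarf plant that does not respond to gibberellin, and the difference is that a gid1 mutant cannot form the complex of receptor and DELLA, whereas a gid2 mutant can form it but not destroy the DELLA. The genes below were sorted into growth lists (walls, division, hormones, water channels), stress lists, clock and light lists, and tissue markers.

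Values are the authors' scaled signals, linear intensities that set an array against other arrays and not a gene against another gene. Signals under 1 were set to 1. Differences are log2 of gid1-3 minus log2 of gid2-1, given ± SE, so that a positive value is a higher level in gid1-3. A gene was called at an adjusted p under 0.05 in limma, with adjustment over all 57194 probe sets, and was read from whichever of its probe sets had the highest mean. Means are given ± SD with n = 3. Over the 6 arrays the median signal ran from 58 to 72.4, and 54.7 to 63.1% of probe sets lay above the 95th percentile of the array's reporter controls, here called the reporter level, which ran from 28.3 to 52.2. Among the brighter probe sets the coefficient of variation had a median of 7.64% in gid1-3 and of 10.2% in gid2-1. Arrays of a line correlated at 0.940 to 0.949 with each other and at 0.924 to 0.937 with arrays of the other mutant.

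The 2 dwarfs differed widely. Of 57194 probe sets, 12046 (21.1%) were called, 5182 (9.06%) higher in gid1-3 and 6864 (12.0%) lower. Of 17905 genes, 7328 (40.9%) were called, 3142 (17.5%) higher in gid1-3 and 4186 (23.4%) lower, and 1752 (9.78%) were called with a difference of at least 2-fold, 570 of them higher in gid1-3 and 1182 lower. The direction of the balance rests on the scaling: with each array centred on its median, 2906 genes were higher and 2403 lower. That centring moved the median log2 difference of all probe sets from -0.05 to 0.06, and the calls it ended among genes described below are named beside them.

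The gene lists did not divide alike. Of 407 growth genes, 178 were lower in gid1-3 and 32 higher, with a median log2 difference of -0.34, beside -0.05 over all genes. Of 319 stress genes, 92 were lower and 68 higher, with a median of -0.03. Among 29 clock and light genes 10 were lower and 5 higher. Among 48 tissue markers, 15 were higher and 8 lower. Beside the shares of all genes, 23.4% lower and 17.5% higher, the growth lists therefore held more lower calls and fewer higher ones, and after centring on medians they held 125 lower and 33 higher. The lists hold only named genes, and of all 2446 named genes 657 were lower and 493 higher, or 47.0% called. Called shares were 51.6% of growth, 50.2% of stress, 51.7% of clock and light genes and 47.9% of tissue markers. The arrays of the 2 lines did not overlap for 199 growth genes lower and 49 higher in gid1-3, beside 9427 of all genes (52.7%) in either direction. No low signal was filtered out, and 378 of the growth genes and 302 of the stress genes lay above the reporter level on at least 1 of the 6 arrays.

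**Figure D1:**
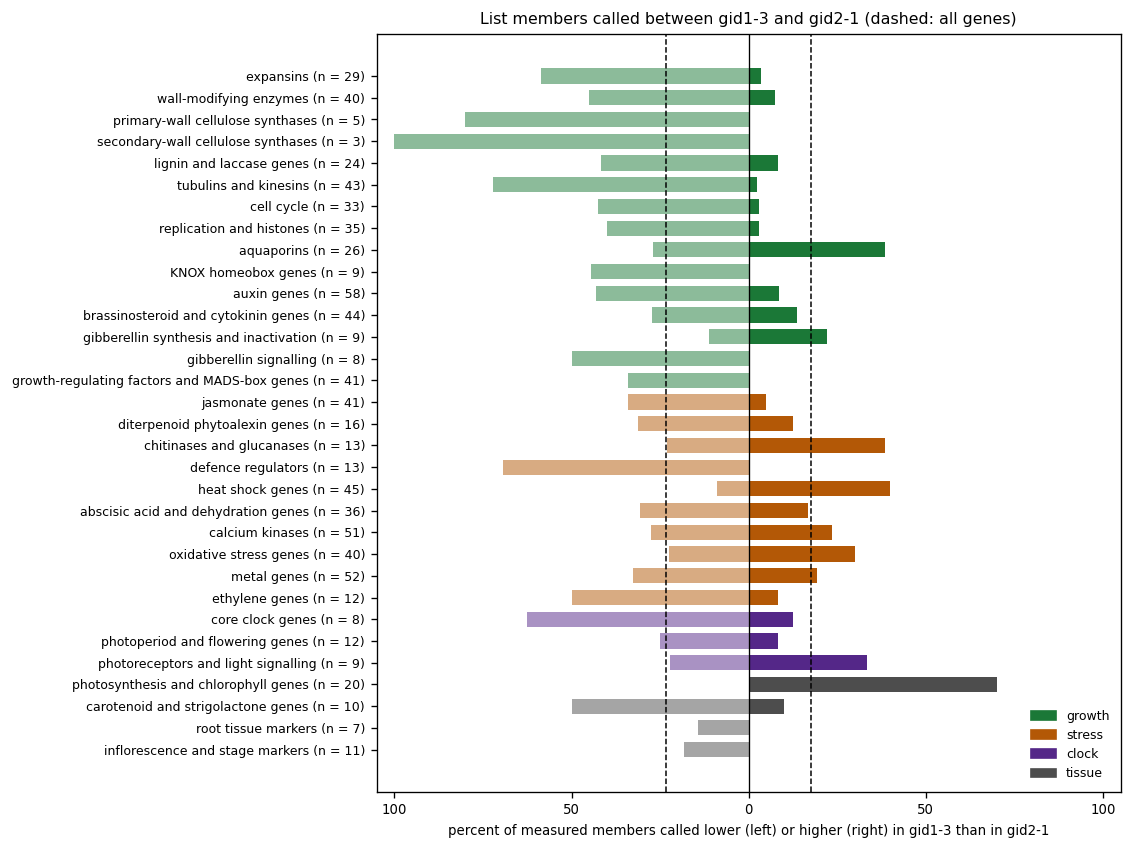
Percent of each list's genes called lower (left) or higher (right) in gid1-3 than in gid2-1, with dashed lines at the shares of all genes, 23.4% and 17.5%. The tubulin and kinesin list reaches furthest to the lower side among lists of more than 5 genes, with 31 of 43 genes, and the photosynthesis list furthest to the higher side, with 14 of 20.

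In the gibberellin pathway itself, 4 of 8 signalling genes were lower in gid1-3 with none higher, and the receptor gene was not called. GID1 measured 6415, 6568 and 6238 in gid1-3 and 6252, 6457 and 5628 in gid2-1, a log2 difference of 0.07 ± 0.06 (adjusted p = 0.48), so the mutants' ranges overlapped. GID2 shares its reference entry with the name of an unrelated gene, GF14E, so the signal could be of either. It measured 5690 ± 159 in gid1-3 and 6433 ± 657 in gid2-1 (-0.17 ± 0.07, adjusted p = 0.1). Neither signal checks the labels, since the lesions are not given. SLR1 measured 822, 839 and 820 in gid1-3 and 1103, 1177 and 1124 in gid2-1, beside 1234, 1355 and 1296 in T65. All gid1-3 arrays lay below all gid2-1 arrays, a log2 difference of -0.46 ± 0.06 (adjusted p = 5.8e-05). SLRL1, a gene related to SLR1, was lower in gid1-3 as well (-0.74 ± 0.16, adjusted p = 0.003). RGA1, the G protein subunit affected in dwarf1, and SPY, a negative regulator of gibberellin signalling, were also called lower (-0.47 and -0.29), but both calls were lost after centring on medians, which left 2 lower calls in the list.

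GA20OX2, the semi-dwarf gene, encodes a GA 20-oxidase, an enzyme of the late steps of gibberellin synthesis. It measured 1143, 1128 and 1000 in gid1-3, 330, 370 and 451 in gid2-1 and 249, 306 and 313 in T65. The gid1-3 arrays stood above the others, 2.86-fold over gid2-1 (log2 difference 1.52 ± 0.15, adjusted p = 1.8e-06), while gid2-1 lay nearer to T65. GA20OX3, an enzyme of the same step, was higher in gid1-3 by a smaller amount, at 2302, 2322 and 2183 against 1586, 1682 and 1641 (0.47 ± 0.07, adjusted p = 0.00021). Of the 9 genes of gibberellin synthesis and inactivation these 2 were higher and 1, CYP714C2, was lower (-0.73 ± 0.14, adjusted p = 0.0011), or 2 without replicate 2 of gid1-3. KS1A, which encodes an early cyclase of the pathway, measured 0.22 ± 0.09 (adjusted p = 0.097) and was not called.

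Wall-loosening genes were lower in gid1-3 than in gid2-1. Expansins loosen the contacts between wall polysaccharides while cells extend, and 17 of 29 were lower and 1 higher, with a median log2 difference of -0.80. The alpha-expansins had 8 of 14 lower and the beta-expansins 7 of 11 lower, with none higher in either family. EXPB6 measured 188, 183 and 190 in gid1-3 and 921, 886 and 884 in gid2-1, with 365, 376 and 404 in T65. T65 thus lay between the dwarfs, and the difference between them was 4.81-fold (-2.27 ± 0.09, adjusted p = 6.7e-11). EXPA2 measured 229, 224 and 187 in gid1-3 and 470, 549 and 525 in gid2-1, both far below 2064, 2035 and 1892 in T65 (gid1-3 against gid2-1, -1.27 ± 0.09, adjusted p = 6.3e-08). EXPA6 followed at 374, 406 and 366 against 851, 808 and 959, where gid2-1 sat at the T65 mean of 821 ± 24.6 (-1.19 ± 0.08). EXPB11 was lower too (-1.38 ± 0.11). EXPA1 was below the reporter level on every gid1-3 array and measured 218, 189 and 175 in gid2-1, so it was at least 4.65-fold lower in gid1-3, and EXPA8 at least 3.96-fold lower by the same bound. Such a bound sets the mean of the bright line against a mean of the higher of each array's reporter level and the dim signal. EXLA2 and EXPA10 were not called, at 2013 ± 130 and 769 ± 18.5 in gid1-3 against 2148 ± 91.6 and 819 ± 24.2 in gid2-1.

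Of 40 enzymes that build and trim the other wall polymers, 18 were lower and 3 higher. CslF8, a member of the family that makes mixed-linkage glucan, measured 78.7, 76.1 and 71.2 in gid1-3 and 522, 332 and 438 in gid2-1 (-2.49 ± 0.15, adjusted p = 9.7e-09). CSLF6, the main synthase of that glucan, measured 4289, 4359 and 4248 against 6775, 6628 and 6277 (-0.61 ± 0.05), and its other probe sets were near the reporter level. CSLA1, from a family of mannan synthases, was 2.47-fold lower (-1.30 ± 0.07, adjusted p = 3.5e-09). Among the endoglucanases, Cel9E was 2.25-fold and GLU2 1.62-fold lower, with no overlap of arrays. The xyloglucan enzyme gene XTH8 was not called (-0.20 ± 0.07, adjusted p = 0.063).

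Cellulose synthases of both wall types were lower in gid1-3, those of the secondary wall by more. Complexes of CESA4, CESA7 and CESA9 make the cellulose of secondary walls in rice, and all 3 were called. CESA4 measured 452, 385 and 466 in gid1-3, 1815, 1621 and 1724 in gid2-1 and 4093, 4166 and 4050 in T65. The lines were fully separated, with gid1-3 lowest and T65 highest, and gid1-3 was 3.97-fold below gid2-1 (-1.99 ± 0.07, adjusted p = 4.2e-11). CESA7 measured 480, 249 and 398 against 1421, 1092 and 1209 (-1.77 ± 0.21, adjusted p = 1.3e-05). CESA9 measured 121, 128 and 149 against 861, 710 and 540 (-2.39 ± 0.13, adjusted p = 3.8e-09). Both kept the order of CESA4, with T65 means of 4200 ± 341 and 1448 ± 42.3. Of the 5 synthases of primary walls, 4 were lower: CESA3 (-0.92 ± 0.07), CESA8 (-0.89 ± 0.06), CESA1 (-0.57 ± 0.06) and CESA6 (-0.45 ± 0.07). A dimmer probe set of CESA1 differed by less (-0.16 ± 0.06, adjusted p = 0.049). CESA5 measured -0.23 ± 0.12 (adjusted p = 0.25). For these 4 called genes, too, the T65 mean lay above both mutants.

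Lignin is the phenolic polymer that stiffens secondary walls, and laccases couple its monomers. In the list of lignin and laccase genes 10 of 24 were lower and 2 higher. LAC3 measured 129, 95.2 and 146 in gid1-3 and 462, 324 and 418 in gid2-1 (-1.71 ± 0.15, adjusted p = 6.2e-07). LAC20 lay below the reporter level in gid1-3 and was at least 4.11-fold lower there. LAC4 measured 51.2, 6.31 and 38.5 against 190, 251 and 178, with gid1-3 above the reporter level on 1 of 3 arrays. CAD2, the cinnamyl alcohol dehydrogenase known from gold hull and internode, measured 1656, 1649 and 1833 against 4012, 4142 and 3698 (-1.21 ± 0.06). The opposite was seen for CAD3, another member of that family, at 2354, 2007 and 2263 against 849, 741 and 922 (1.4 ± 0.10, adjusted p = 5.0e-08). Of the general phenylpropanoid route 4CL4 was not called (0.08 ± 0.06). Probe sets of PAL disagreed: the brightest was not called (-0.23 ± 0.13), others were called lower (-0.41 and -0.60) and a dimmer one was called higher (0.44).

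Most genes of the microtubule cytoskeleton were lower in gid1-3. Of 43 tubulin and kinesin genes 31 were lower in gid1-3 and 1 higher, with a median of -0.54, and 21 were lower after centring on medians. Kinesins, the microtubule motors, had 24 of 32 lower, and 7 of 9 alpha- and beta-tubulins were lower. KIN14H measured 287, 275 and 239 in gid1-3 and 949, 963 and 960 in gid2-1 (-1.85 ± 0.07, adjusted p = 9.6e-11). TUBB8, a beta-tubulin, measured 801, 971 and 789 against 1978, 2178 and 2314 (-1.34 ± 0.10, adjusted p = 7.4e-08). In both genes T65 was above gid2-1, at 1807 ± 68.3 and 4079 ± 256. Not every tubulin differed: TUBB3 measured 8681, 9017 and 9057 against 9744, 9559 and 8936 (-0.08 ± 0.05, adjusted p = 0.38).

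Cyclins and kinases of mitosis were among the lower genes. CYCB1-1, a B-type cyclin of mitosis, measured 264, 230 and 277 in gid1-3, 862, 987 and 968 in gid2-1 and 1256 ± 26.2 in T65 (-1.87 ± 0.08, adjusted p = 1.8e-10). CDKB2-1, the plant-specific kinase active at mitosis, measured 262, 324 and 322 against 849, 916 and 897 (-1.56 ± 0.09), and CYCB2-1 was lower by a like amount (-1.54 ± 0.11). No array of gid1-3 reached the lowest of gid2-1 for these genes. In all, 14 of 33 cell cycle genes were lower and 1 higher. The higher one, CDKE-1, rests on its brighter probe set (0.88 ± 0.06), since another probe set of the gene measured -0.01 (adjusted p = 0.96). CDKG-1 and CDKG-2 were not called, with differences of -0.03 and 0.12, but a dimmer probe set of CDKG-2 was called lower (-0.78, adjusted p = 0.00019). Replication genes and histones gave 14 of 35 lower and 1 higher, but 6 lower after centring on medians and 9 without replicate 3 of gid1-3. Higher calls numbered 3 without replicate 2 of gid1-3 and 2 without replicate 1 or 3 of gid2-1. The helicase subunit MCM3 measured 300, 247 and 267 against 545, 520 and 472 (-0.92 ± 0.10, adjusted p = 4.1e-06), and MCM6 and MCM4 were lower by 0.71 and 0.56 on the log2 scale.

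Auxin genes were lower in gid1-3 more often than higher, 25 against 5 of 58. Auxin response factors (ARF) bind the promoters of auxin-regulated genes, and 12 of 16 were lower with none higher. The Aux/IAA repressors, which bind these factors, had 8 of 26 lower and 3 higher. IAA13 measured 779, 781 and 749 in gid1-3, 3129, 3104 and 3010 in gid2-1 and 4615 ± 55.5 in T65. The replicates of each line lay close together, and gid1-3 was 4.0-fold below gid2-1 (-2.0 ± 0.05, adjusted p = 1.4e-12). PIN5A, from the family of auxin carriers, measured 347, 334 and 317 against 877, 880 and 820 (-1.37 ± 0.06). IAA12 was also lower (-1.17 ± 0.08). GH3.2, whose enzyme family conjugates auxin to amino acids, was higher in gid1-3, at 1471, 1510 and 1733 against 562, 575 and 639 (1.41 ± 0.08, adjusted p = 3.3e-09).

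Brassinosteroid and cytokinin genes divided between the directions, with 12 of 44 lower and 6 higher, and 5 lower and 6 higher after centring on medians. Cytokinin oxidases (CKX) break down cytokinin, and 2 of them moved apart. CKX5 measured 185, 245 and 200 in gid1-3 and 760, 774 and 745 in gid2-1 (-1.87 ± 0.11, adjusted p = 9.3e-09), whereas CKX11 measured 1533, 1237 and 1188 against 399, 221 and 381 (2.02 ± 0.18, adjusted p = 5.0e-07). RR6, a type-A response regulator of cytokinin signalling, was higher in gid1-3 (0.88 ± 0.07). CYP90A4, an enzyme of brassinosteroid synthesis, was lower (-0.80 ± 0.06), and so was CYP734A4, from a family that inactivates brassinosteroids (-1.33 ± 0.12).

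Some KNOX homeobox genes, though not all of the family, keep cells of the shoot meristem undetermined. Of the 9 KNOX genes listed 4 were lower in gid1-3, none were higher and 5 were not called. OSH1, the rice gene of this family best known from the meristem, measured 450, 421 and 437 in gid1-3, 1032, 1053 and 1233 in gid2-1 and 1214 ± 62.2 in T65 (-1.34 ± 0.09, adjusted p = 2.9e-08). HOS66 was 2.77-fold and OSH71 2.36-fold lower, and here gid2-1 stood above both gid1-3 and T65. The abundant signals of HOS58 and HOS59 were not called (-0.13 and -0.18, adjusted p = 0.099 for each). The list of growth-regulating factors and MADS-box genes had 14 of 41 lower, none higher and 27 not called. Growth-regulating factors (GRF), transcription factors of dividing leaf tissue, had 9 of 10 lower, among them GRF6 at 590, 613 and 655 against 1225, 957 and 1167 (-0.84 ± 0.09, adjusted p = 3.0e-06). MADS18, a MADS-box gene of the transition to flowering, measured 261, 271 and 273 against 1146, 1228 and 1135, with T65 at 1211 ± 28.1 (-2.12 ± 0.08, adjusted p = 8.0e-11).

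Water channels divided between the directions, with 10 of 26 higher and 7 lower, and 7 in each direction after centring on spiked controls, with no trend in the prior variance or with the 6 arrays alone. TIP1-2, a channel of the vacuolar membrane, measured 932, 860 and 953 in gid1-3 and 85.7, 78.8 and 79.2 in gid2-1, while T65 measured 6886 ± 101. Both dwarfs lay far below T65 and gid2-1 lay 11.3-fold below gid1-3 (3.49 ± 0.06, adjusted p = 1.2e-13). The plasma membrane channels PIP2-4 and PIP2-2 showed the same order of lines, with differences of 2.1 ± 0.12 and 1.11 ± 0.05 between the mutants. Of the 10 PIP genes 6 were higher and 2 lower. The silicon channels Lsi1 and Lsi6 were lower in gid1-3 instead. Lsi1 measured 553, 561 and 560 against 1733, 1626 and 1570 (-1.56 ± 0.07), and Lsi6 860, 801 and 925 against 2258, 2099 and 2015 (-1.30 ± 0.07). Leaving out probe sets that can bind related transcripts lowered these counts to 5 and 4.

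**Figure D2:**
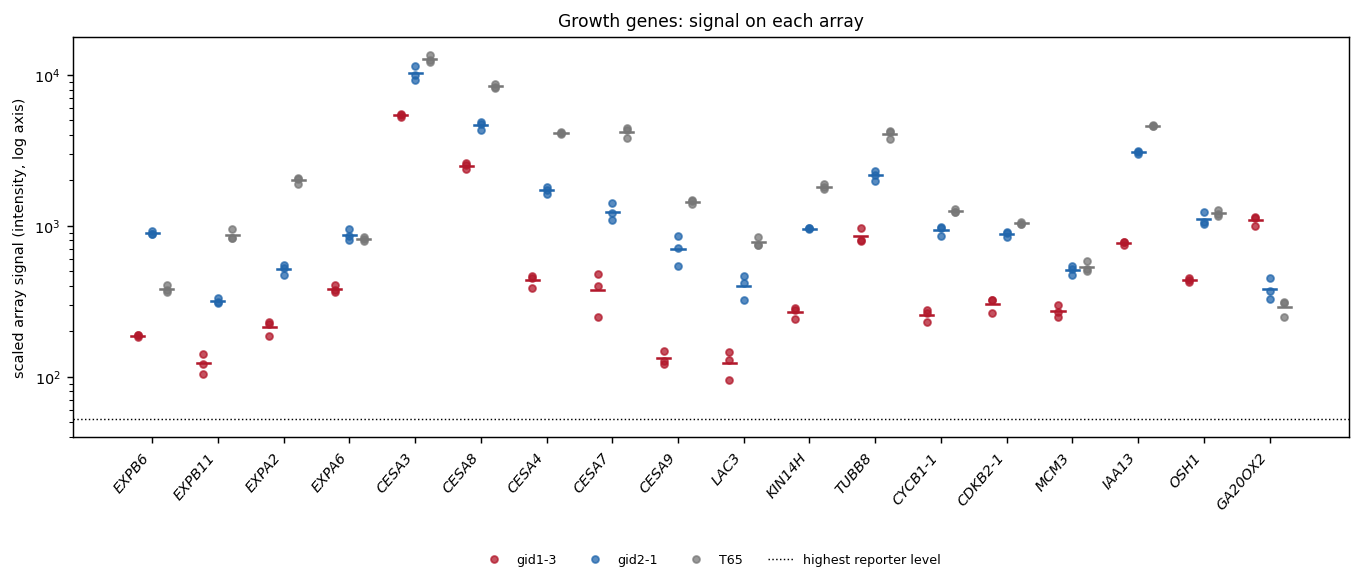
Scaled signal on a log axis of 18 growth genes, with a point for each of the 3 arrays of gid1-3, gid2-1 and T65, a dash for the line's mean and a dotted line at the highest reporter level of the 6 arrays, 52.2. Apart from GA20OX2, the genes drawn lie lower in gid1-3 than in gid2-1 on all arrays, and the T65 points lie above both mutants for the secondary-wall genes CESA4, CESA7 and CESA9.

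Among stress genes, the heat shock list had the most higher calls beyond its lower ones, 18 of 45 higher in gid1-3 and 4 lower. Small heat shock proteins and the HSP101-type disaggregase CLPB family bind or dissolve unfolded proteins, heat shock factors (HSF) regulate their genes, and HSP81 proteins are rice forms of HSP90. HSP24.1, an organellar small heat shock protein, measured 2967, 2807 and 2815 in gid1-3, 67.8, 94.1 and 101 in gid2-1 and 687, 667 and 663 in T65. The mutants lay on opposite sides of T65, 33.1-fold apart (5.05 ± 0.11, adjusted p = 3.2e-13). CLPB-M measured 502, 479 and 420 against 49.1, 35 and 39.4 (adjusted p = 1.0e-10), with gid2-1 above the reporter level on 1 of 3 arrays and the size therefore not resolved, and the 3 CLPB genes were all higher. HSP81-1 measured 13053, 12236 and 12000 against 3137, 3284 and 3532, with gid1-3 at the T65 mean of 12813 ± 246 (1.91 ± 0.06, adjusted p = 1.7e-11). HSP16.0 measured 313, 344 and 331 in gid1-3, overlapping 349, 341 and 317 in T65, and lay below the reporter level in gid2-1, so it was at least 8.38-fold higher in gid1-3. Small heat shock proteins as a family had 7 of 19 higher, 1 lower and 11 not called, with a median difference of 0.00. HSP18.8 measured 4225, 3253 and 4012 against 3339, 3528 and 4653 (adjusted p = 0.99).

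Heat shock factors moved both ways. HSFB2C measured 1722, 1880 and 2167 in gid1-3 and 326, 353 and 281 in gid2-1 (2.59 ± 0.10, adjusted p = 4.3e-11), and its other probe sets differed by 3.14 and 2.93. HSFB2A was higher too (2.03 ± 0.07). HSFB2B measured 153, 230 and 154 against 44.2, 23.9 and 37.0 and was called higher (adjusted p = 4.2e-06), but gid2-1 lay above the reporter level on 1 of 3 arrays, so the size is not resolved. HSFB1 and HSFC1B ran against them. HSFC1B measured 448, 532 and 439 in gid1-3, 2980, 3453 and 2901 in gid2-1 and 158 ± 11.8 in T65, which placed both mutants above T65 and gid2-1 6.59-fold above gid1-3 (-2.72 ± 0.17, adjusted p = 1.6e-08). HSFB1 measured 2223, 2299 and 2464 against 4800, 5120 and 4666 (-1.06 ± 0.06). In all 5 of 18 factors were higher and 3 lower.

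Genes of abscisic acid and dehydration responses gave 11 of 36 lower and 6 higher, and 6 lower and 7 higher after centring on medians. SAPK9, a kinase of the family activated by abscisic acid and osmotic stress, had the largest difference of the list, at 200, 257 and 193 in gid1-3, 2706, 2596 and 2835 in gid2-1 and 501 ± 17 in T65 (-3.66 ± 0.11, adjusted p = 3.7e-12). Its relative SAPK7 was 1.51-fold lower and SAPK8 was not called (-0.02 ± 0.07). The salt-induced lectin gene salT measured 19591, 23199 and 21686 against 11278, 12027 and 10378 (0.94 ± 0.07, adjusted p = 1.9e-07). DREB1G, a factor of the cold and drought family, was lower (-0.66 ± 0.06) and DREB1B was not called.

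Calcium-linked kinases likewise divided, 14 of 51 lower and 12 higher, and 7 lower after centring on medians. CIPK14, a kinase regulated by calcineurin B-like sensors (CBL), measured 8449, 8423 and 8009 in gid1-3 and 3183, 3320 and 3466 in gid2-1, both above 516 ± 41.1 in T65 (1.32 ± 0.08, adjusted p = 6.2e-09). CIPK10 went the other way, at 817, 686 and 740 against 2413, 2149 and 2421 (-1.64 ± 0.08). The sensors themselves had 4 of 7 higher and none lower. The calcium-dependent kinases (CPK) had 8 of 20 lower and 3 higher, with CPK23 at -1.20 ± 0.09 and CPK24 at -0.88 ± 0.06.

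Defence regulators were lower in gid1-3 by small amounts, 9 of 13 with none higher, and 2 of 13 after centring on medians. PBZ1, a pathogenesis-related protein gene induced by probenazole, measured 9012, 8936 and 8657 against 13136, 12956 and 11858 (-0.51 ± 0.06, adjusted p = 4.8e-06). NH3, a homologue of the salicylic acid receptor NPR1, measured 3785, 3984 and 3742 in gid1-3, 5382, 5241 and 5113 in gid2-1 and 2230 ± 32.3 in T65 (-0.45 ± 0.06, adjusted p = 3.6e-05). The calls of NH3, WRKY76 and WRKY9 were among those lost after that centring, and WRKY62 (-0.43 ± 0.06) and PBZ1 were the named regulators that kept theirs. Before centring, the dimmer probe sets of NH3 were called lower too (-0.84, -0.66 and -0.45). WRKY24 was not called. WRKY71 was not called on its brightest probe set (0.04 ± 0.08) but was higher in gid1-3 on another (0.41 ± 0.05, adjusted p = 3.6e-05), which the list's count leaves out.

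Jasmonate genes had 14 of 41 lower and 2 higher, and 7 lower after centring on medians. AOS2, an allene oxide synthase of jasmonate synthesis, measured 5243, 4877 and 5003 in gid1-3, 8164, 7710 and 7462 in gid2-1 and 2330 ± 104 in T65. Both mutants exceeded T65, gid2-1 by more (gid1-3 against gid2-1, -0.63 ± 0.06, adjusted p = 2.5e-06). TIFY6A, of the jasmonate repressor family, was lower (-0.91 ± 0.05), while 14 of the 17 TIFY genes were not called. Among these, TIFY11B was higher in gid1-3 on a dimmer probe set (0.53 ± 0.07, adjusted p = 5.5e-05), which the counts leave out. OPR6, from the family of oxophytodienoate reductases, was higher in gid1-3, at 590, 815 and 742 against 205, 262 and 224 (1.63 ± 0.20, adjusted p = 1.6e-05), with 40.0 ± 4.02 in T65.

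Antimicrobial products showed genes on both sides. Rice makes diterpenoid phytoalexins, and of 16 genes of their synthesis 5 were lower and 2 higher, with 3 lower without replicate 1 or 2 of gid1-3 or replicate 3 of gid2-1. KSL10, a diterpene synthase, measured 1313, 1263 and 1297 against 368, 400 and 322 (1.83 ± 0.18, adjusted p = 1.5e-06). CYP71Z7 (-1.02 ± 0.08) and CYP71Z6, cytochrome P450 enzymes of the same products, were lower, the latter with gid1-3 above the reporter level on 1 of 3 arrays. Chitinases degrade fungal walls, and that list had 5 of 13 higher and 3 lower. Cht2 measured 5351, 5759 and 5834 in gid1-3, 2115, 2536 and 2112 in gid2-1 and 1428 ± 99.5 in T65 (1.33 ± 0.09, adjusted p = 2.2e-08), beside 1.04 on another probe set and 0.80 (adjusted p = 0.11) on a dim one, and Rcb4 was 3.30-fold higher in gid1-3. Cht10 was lower (-0.94 ± 0.08). The call of Cht3 (0.75 ± 0.08) rests on 1 of its probe sets, since the other measured 0.13 (adjusted p = 0.81).

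Redox, metal and ethylene genes closed the stress lists. Oxidative stress genes had 12 of 40 higher and 9 lower. GRXC1, a glutaredoxin, measured 664, 663 and 658 against 168, 190 and 171 (1.91 ± 0.11, adjusted p = 3.7e-09), and GSTU1, a glutathione transferase, 131, 108 and 117 against 437, 405 and 410 (-1.81 ± 0.10). Metal genes had 17 of 52 lower and 10 higher, and the ZIP transporters of zinc and iron had 6 of 8 lower. ZIP3 measured 250, 227 and 256 in gid1-3, 1195, 1128 and 1003 in gid2-1 and 1004 ± 97.7 in T65 (-2.18 ± 0.09, adjusted p = 1.5e-10). IRO2, a factor of the response to iron deficiency, was higher, at 807, 774 and 861 against 215, 298 and 363 (1.51 ± 0.14). In the ethylene list 6 of 12 genes were lower and 1 higher. ACS2, an enzyme of ethylene synthesis, measured 2038, 1957 and 1975 in gid1-3, 864, 697 and 752 in gid2-1 and 336 ± 23.5 in T65 (1.37 ± 0.09), whereas the receptor genes ETR3 and ERS2 and the signalling gene EIN2 were 1.73 to 2.26-fold lower.

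**Figure D3:**
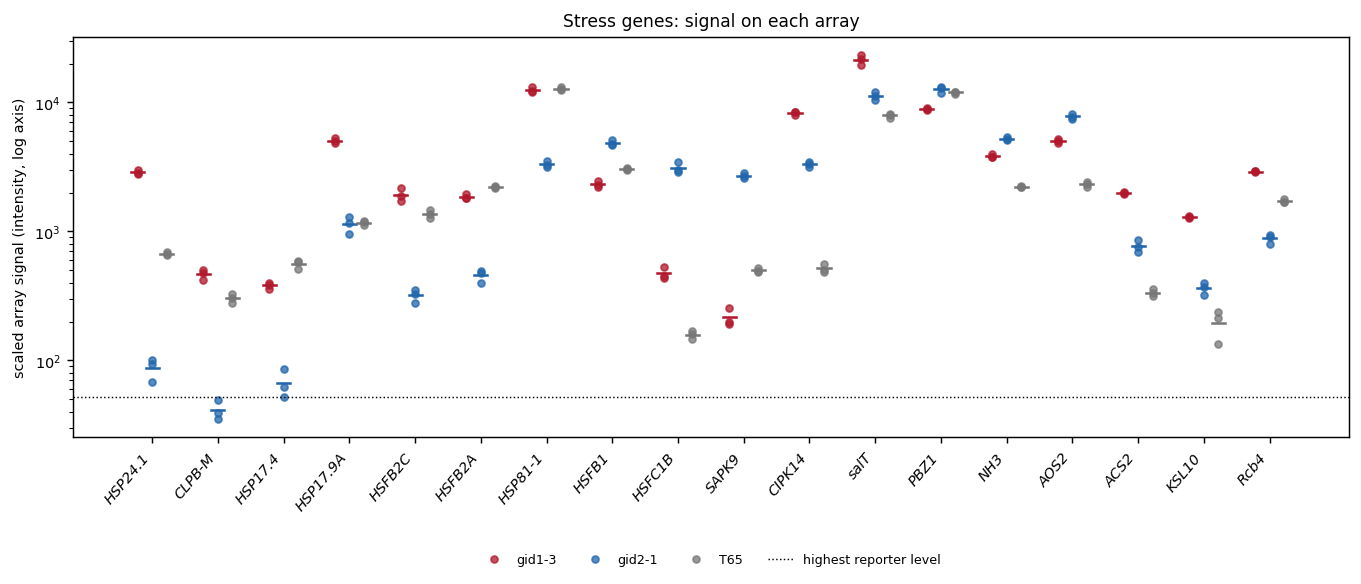
Scaled signal on a log axis of 18 stress genes, drawn as for the growth genes with 3 points per line and a dash for the mean. HSP24.1, CLPB-M, HSP17.4 and HSFB2C lie high in gid1-3, SAPK9 and HSFC1B lie high in gid2-1, and for HSP81-1 the gid1-3 points lie at those of T65.

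Core clock genes were far apart between the mutants. In plants LHY is expressed around dawn, the PRR genes in turn through the day, and PRR1 (the rice TOC1), GI and PCL1 (related to LUX) towards evening, each repressing or activating others of the loop. Of 8 core genes 5 were lower in gid1-3 and 1 higher. LHY measured 12683, 14029 and 13785 in gid1-3, 2978, 3069 and 2934 in gid2-1 and 13708, 13058 and 14119 in T65. The gid1-3 arrays overlapped those of T65, and gid2-1 lay 4.51-fold below gid1-3 (2.17 ± 0.06, adjusted p = 3.2e-12). PCL1 measured 120, 114 and 118 in gid1-3, 4050, 3706 and 3864 in gid2-1 and 495, 540 and 408 in T65, a 32.9-fold difference between the mutants, with T65 between them (-5.04 ± 0.41, adjusted p = 2.6e-07). PRR1 measured 971, 949 and 874 against 3719, 3548 and 3230, with T65 at 1392 ± 63.3 (-1.91 ± 0.08). GI measured 7291, 7301 and 6908 against 14505, 16645 and 12724, with T65 at 9381 ± 385 (-1.02 ± 0.08). For PCL1, PRR1 and GI the order of lines was the same, gid1-3 lowest, then T65, then gid2-1.

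The pseudo-response regulators of the day differed less. PRR95 measured 5614, 5295 and 5163 in gid1-3, 10422, 7787 and 8860 in gid2-1 and 11868 ± 344 in T65 (-0.74 ± 0.09, adjusted p = 1.7e-05), so here gid2-1 was the line nearer to T65. PRR37 was called lower (-0.41 ± 0.07, adjusted p = 0.00032), but a dimmer probe set of the gene measured -0.03, and the call was lost when both were averaged. PRR73 measured -0.11 ± 0.08 (adjusted p = 0.46), beside -0.28 (adjusted p = 0.015) on a dimmer probe set. XCT, a further clock-associated gene, was not called (0.16 ± 0.07, adjusted p = 0.12). Among the called core genes the T65 mean lay nearer to gid1-3 in 5 and nearer to gid2-1 in 1. The labels give no hour of harvest, and for genes with a daily rhythm a difference between the lines cannot be told apart from a difference in the hour at which they were sampled. Other transcripts could also bind the probe sets of LHY and PRR95.

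Genes of day length and flowering had 3 of 12 lower and 1 higher, or 33.3% called beside 40.9% of all genes. SE5, a haem oxygenase that makes the phytochrome chromophore, was higher in gid1-3, at 8195, 8236 and 8174 against 5966, 7211 and 6849 (0.30 ± 0.06, adjusted p = 0.0028). The lower calls were weak. DTH8, a flowering repressor of long days, measured 29.4, 53.2 and 38.3 against 75.4, 99.5 and 70.5 (adjusted p = 0.015), with gid1-3 above the reporter level on 1 of 3 arrays, and the call was lost without replicate 1 of gid1-3 (adjusted p = 0.066), without replicate 2 of gid2-1 (0.067) and with the 6 arrays alone (0.089). Those of Ehd4 and LHP1 (-0.32 and -0.24) were lost after centring on medians and with a prior variance that had no trend, and that of LHP1 also with the 6 arrays alone and without replicate 3 of gid1-3 (adjusted p = 0.12) or of gid2-1 (0.1).

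Among photoreceptors and light signalling genes 3 of 9 were higher in gid1-3 and 2 lower. GLK1, a factor that activates genes of chloroplast development, measured 4084, 3899 and 4165 in gid1-3, 689, 741 and 693 in gid2-1 and 1641 ± 65.1 in T65. The mutants thus stood on opposite sides of T65 and differed 5.72-fold (2.52 ± 0.06, adjusted p = 8.6e-13). Its relative GLK2 was higher as well, at 5439, 5663 and 5363 against 3761, 3004 and 3273 (0.72 ± 0.07). PHOT2, a blue light receptor, was higher (0.70 ± 0.10, adjusted p = 7.6e-05). Phytochrome genes were lower: phyC by -0.65 ± 0.06 (adjusted p = 1.2e-06) and PhyB by -0.40 ± 0.05, the latter call lost after centring on medians.

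Photosynthesis and chlorophyll genes, which also served as leaf tissue markers, were higher in gid1-3, 14 of 20 with none lower and a median of 0.52. PORA, the light-dependent enzyme of chlorophyll synthesis known from etiolated seedlings of Arabidopsis, measured 4461, 4386 and 4416 in gid1-3, 1297, 1231 and 1288 in gid2-1 and 4701 ± 116 in T65 (1.80 ± 0.07, adjusted p = 6.2e-11). CHLP, which makes the phytol tail of chlorophyll, measured 7538, 8056 and 7814 against 3500, 3702 and 3474 (1.13 ± 0.06), and CHLH, a subunit of magnesium chelatase, 4530, 4581 and 4583 against 2466, 2264 and 2402 (0.94 ± 0.06). For PORA gid1-3 lay near T65, and for CHLP and CHLH it lay between T65 and gid2-1. RCAA1, the activase of the carbon-fixing enzyme Rubisco, was 1.93-fold higher (0.95 ± 0.09, adjusted p = 1.4e-06). The photosystem I subunit gene PSAG measured 7004, 6594 and 6374 against 858, 747 and 838 (3.03 ± 0.07), but its dimmer probe set measured -0.05 (adjusted p = 0.94), and so did not share that difference. The dimmer probe set of CHLH was not called either (-0.34, adjusted p = 0.15). The small subunit gene of Rubisco, RBCS, measured 21066, 24120 and 22848 against 22724, 26951 and 17283 and was not called (0.04 ± 0.16, adjusted p = 0.91), and neither was OEE3 of photosystem II. Higher calls in this list numbered 11 after quantile normalization, 10 after centring on spiked controls and 8 without the probe sets that can bind related transcripts.

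Carotenoid and strigolactone genes had 5 of 10 lower and 1 higher, or 2 higher without replicate 3 of gid1-3 or replicate 2 of gid2-1. PSY2, a phytoene synthase at the entry of carotenoid synthesis, measured 1101, 1059 and 1123 in gid1-3, 200, 191 and 199 in gid2-1 and 4335 ± 67.1 in T65 (2.48 ± 0.06, adjusted p = 5.9e-13). PSY3, another phytoene synthase, was lower (-1.12 ± 0.11, adjusted p = 2.4e-06). CCD8A, a dioxygenase of the family that makes strigolactone precursors, measured 149, 87.8 and 91.1 against 322, 321 and 373, above 57.0 ± 11.8 in T65 (-1.67 ± 0.31, adjusted p = 0.00097). The strigolactone receptor gene D14 was not called.

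**Figure D4:**
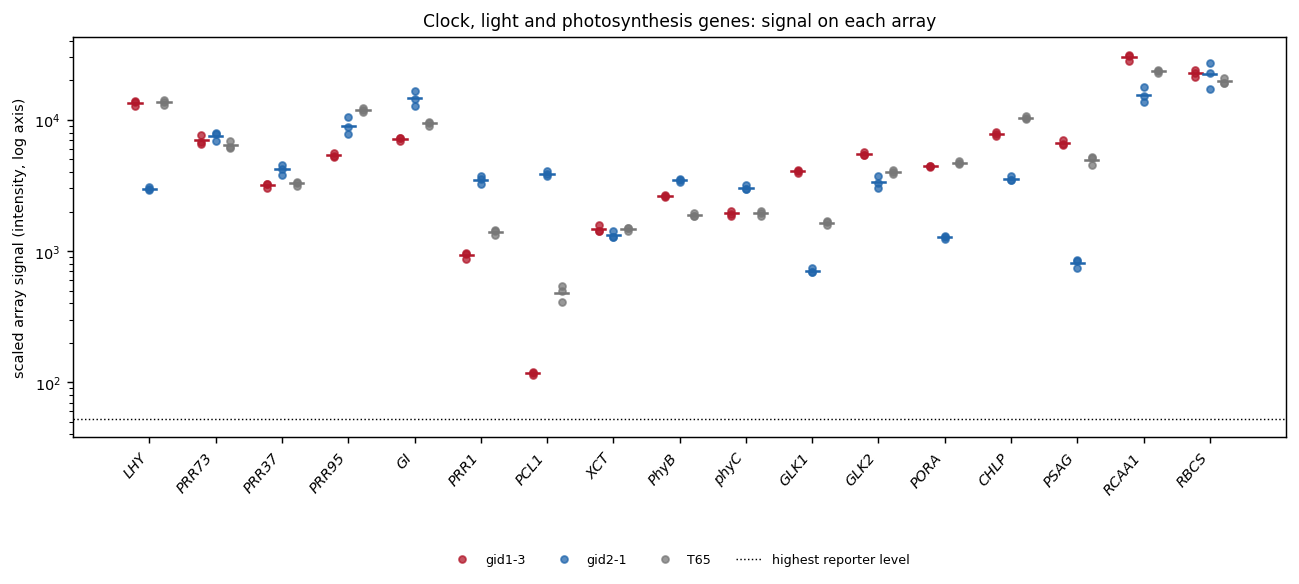
Scaled signal on a log axis of core clock genes, light receptors and factors, and photosynthesis genes, with 3 points per line for gid1-3, gid2-1 and T65 and a dash for the mean. LHY, GLK1, PORA, CHLP and PSAG lie higher in gid1-3 than in gid2-1, PCL1, PRR1 and GI lie lower, and the points of RBCS overlap.

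Marker sums give the make-up of the tissue as far as these lists show it. The summed signal of the 20 photosynthesis genes ran from 176734 to 185987 in gid1-3, 120805 to 145286 in gid2-1 and 166289 to 175355 in T65. That of the 9 KNOX genes ran from 23297 to 23552, 27252 to 29568 and 26902 to 27663 in the same order. That of 11 inflorescence markers ran from 486 to 519 in gid1-3, 1409 to 1655 in gid2-1 and 1561 to 1598 in T65, with MADS18 and RFL (-1.02 ± 0.23, adjusted p = 0.0042) the 2 called genes and 5 of the 11 not above the reporter level. That of 7 root markers ran from 885 to 943, 2117 to 2300 and 728 to 812, with Lsi1 the 1 called gene and 6 not called, or 2 called without replicate 2 of gid2-1. IRO2 was planned as a root marker and not as a metal gene, but is described with the metal genes instead. The root sum leaves it out, and it ran the other way, higher in gid1-3. No sum of a mutant's arrays overlapped the other mutant's, but Lsi1 made up most of the root sum and MADS18 most of the inflorescence sum in both mutants, so those sums follow single genes. OSH1 made up little of the KNOX sum, with means of 436 in gid1-3 and 1106 in gid2-1, so that sum says little of this meristem gene. The part of tissue make-up in the differences above was not tested, and in such whole shoots fewer cells of a type and less RNA per cell cannot be told apart.

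The position of T65 separated the groups of genes further, as a description. Compared with T65, 10094 genes (56.4%) were called in gid1-3 and 9096 (50.8%) in gid2-1, and both comparisons share the T65 arrays. Among the 7328 genes called between the mutants, the T65 mean was nearer to gid2-1 in 4410 and nearer to gid1-3 in 2918. The lean depended on direction: genes lower in gid1-3 divided 2762 and 1424 in that order, and genes higher in gid1-3 divided 1648 and 1494. Growth genes leaned further to gid2-1, 156 against 54, or 143 against 35 among their lower calls. Of the 178 that were lower in gid1-3 the T65 mean lay above both mutants in 121, beside 2004 of 4186 over all genes. For 30 of the 31 lower tubulin and kinesin genes it lay above both. KIN14H illustrates this, with log2 differences from T65 of -2.76 ± 0.07 in gid1-3 and -0.92 ± 0.07 in gid2-1. Heat shock genes leaned the other way, 18 nearer to gid1-3 and 4 nearer to gid2-1, and photosynthesis genes 11 and 3. The photosynthesis calls were all higher in gid1-3, and the heat shock calls higher in gid1-3 divided 15 and 3, beside 1494 and 1648 for all higher genes. HSP81-1 measured -0.04 ± 0.06 against T65 in gid1-3, with an adjusted p of 0.71, whereas gid2-1 measured -1.95 ± 0.06 (adjusted p = 6.8e-12). Among the 16 called jasmonate genes the T65 mean lay below both mutants in 10, beside 2061 of 7328 over all genes.

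**Figure D5:**
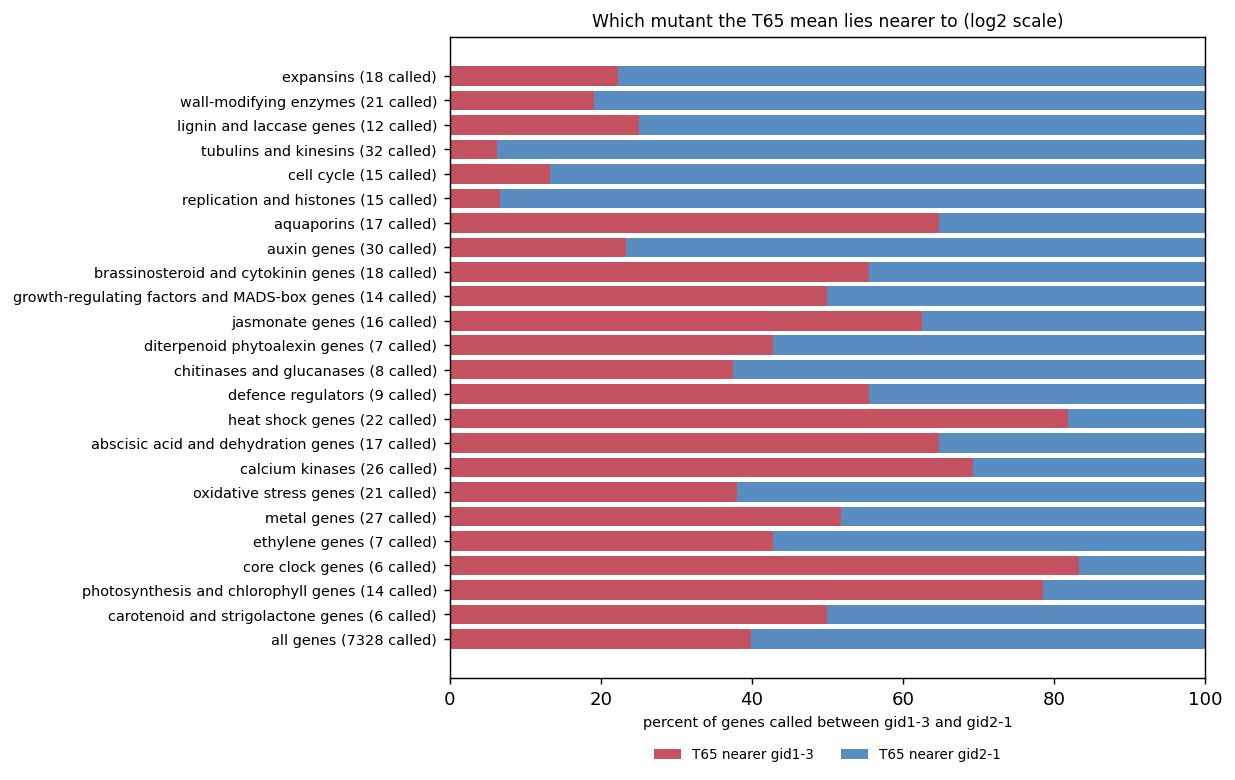
For lists with at least 6 genes called between gid1-3 and gid2-1, and for all genes, the share of called genes whose T65 mean lay nearer to gid1-3 or nearer to gid2-1 on the log2 scale. Tubulins and kinesins (2 and 30 genes) and heat shock genes (18 and 4) lean opposite ways, beside 2918 and 4410 for all genes.

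Among the 20 largest differences in each direction, which came from 18 genes higher and 20 genes lower in gid1-3, several belonged to no list. BBD1, named for a nuclease of basal defence in Arabidopsis, measured 465, 467 and 474 in gid1-3, 8664, 9795 and 8048 in gid2-1 and 526 ± 44.4 in T65, so gid1-3 lay beside T65 and gid2-1 18.8-fold above gid1-3 (-4.23 ± 0.16, adjusted p = 4.7e-11). GLT2, a glutamate synthase, measured 1355, 1294 and 1271 against 6926, 6776 and 7470, both above 183, 179 and 139 in T65 (-2.43 ± 0.09). VIT1.2, a vacuolar iron transporter, was 5.78-fold lower in gid1-3. PDC1, a pyruvate decarboxylase of fermentation, measured 50.6, 14.5 and 64.1 in gid1-3 and 338, 341 and 314 in gid2-1 (adjusted p = 2.7e-05), and since gid1-3 lay above the reporter level on 2 of 3 arrays the size of the difference is not resolved.

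On the higher side ARD4, an enzyme of the methionine salvage cycle, measured 8023, 7888 and 7524 in gid1-3, 1021, 908 and 1082 in gid2-1 and 8717 ± 166 in T65 (2.96 ± 0.06, adjusted p = 2.5e-13). EGY3, related to plastid membrane proteases, measured 3083, 2987 and 2901 against 298, 325 and 360, with T65 at 3679 ± 248 (3.19 ± 0.10). For both genes gid1-3 lay nearer to T65 than gid2-1 did. FRO1, a ferric reductase, was 5.34-fold higher, and BURP2, of the BURP domain family, was higher by 3.45 ± 0.15 on its brighter probe set and by 1.87 ± 0.11 on another. Probe sets of NSHB1 and HAK5 also disagreed. NSHB1, a non-symbiotic haemoglobin, was called higher on a probe set averaging 19.5 in gid2-1, where the size is not resolved, and differed by 0.92 and 1.14 on its others, the brightest of which gave 0.63 (adjusted p = 0.06) without replicate 3 of gid2-1, and HAK5, a potassium transporter, differed by -2.25 on 1 probe set and by -0.02 on its brighter one.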

How the data were processed

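Per the labels, RNA from shoots of 4 lines, with 3 biological replicates each, was extracted with a column kit and hybridised as biotinylated cRNA to 12 arrays. The deposited values are signal intensities on a linear scale. That they were scaled per array is inferred from nearly equal array means after 2% of values were trimmed at each end. The software is not given in the sources used here, and no detection calls were used. Of 57381 probe sets 187 were controls. Signals were floored at 1 and log2 was taken. All 12 arrays entered a limma 3.58.1 model in R 4.3.3 that held the mean of each line, with variances moderated along a trend (eBayes) and Benjamini-Hochberg adjustment. The fit was tested on simulated data. The array's annotation named 1 gene for 22436 probe sets, several for 95 and none for 34663, giving 17905 genes. Precision is limited by how many arrays a line has.

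The members, the 32 lists (789 genes) and the tests were chosen with earlier results of these data known. Genes named were GID1, GID2 and SLR1, the probe sets of the 20 largest differences in each direction among those called, named, not overlapping and at or above the median, all core clock genes, and for each other list up to 5 called members of smallest p and up to 2 bright uncalled members. HSFB1, HSP16.0 and RCAA1, and HSP17.9A in a plot, were chosen after their values were seen. Lists are matched by symbol, so unnamed genes are missing from them. Probe sets that can bind related transcripts include those of SAPK9, LHY, GLK1, CLPB-M, PSY2, CESA3, KIN14H, CIPK14, Cht2, salT and CAD3. No promoter or other sequence was used here, and promoter motifs were not searched. Alternatives were 2 further scalings of the arrays and a quantile normalization, a filter on dim probe sets, a pseudocount of 16, no trend, the 6 arrays alone, a replicate block, a threshold of 2-fold, removal of cross-hybridizing probe sets, averaging of a gene's probe sets, and removal of each array in turn.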

Additional observations from a re-analysis of the deposited data

How the results depend on the processing

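Of 228 named genes 167 were called, and 151 of these were called under every setting other than the 2-fold threshold, which ended 61 calls. Centring on medians ended 10 calls, and the removal of the trend and the 6 arrays alone 2 each. Averaging of a gene's probe sets ended 3, leaving aside 2 genes whose signs it reversed. With the 2-fold threshold 1247 probe sets were higher and 2325 lower, and 570 genes higher and 1182 lower. The lists then kept 9 higher and 65 lower growth genes, 28 and 22 stress genes and 2 and 4 clock genes. Tissue markers kept 4 higher and 6 lower calls, so their balance turned to the lower side. After centring on medians 3975 probe sets, 2403 genes and 54 stress genes were lower, and 4943 probe sets and 2906 genes higher. With cross-hybridizing probe sets left out, 2 clock genes and 8 tissue markers were higher, from fewer genes tested. Signs were reversed under averaging for CDKG-2 (-0.26) and CSLF6 (0.029), whose other probe sets are dimmer. Without each array in turn, 4340 to 4912 probe sets were higher and 6094 to 6293 lower, and 2672 to 3028 genes were higher and 3760 to 3923 lower. Growth genes then gave 30 to 35 higher and 162 to 172 lower, stress genes 62 to 67 and 83 to 92, clock genes 5 to 6 and 9 to 11, and tissue markers 12 to 14 and 8 to 9.

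The labels do not pair replicate numbers, and deviations of same-numbered arrays of the 2 mutants correlated at -0.014, 0.042 and -0.012. With a replicate block 5104 probe sets were higher and 6802 lower, 3105 and 4177 genes, and no named call was lost and 1 was gained. Where a gene lay below the reporter level on some arrays of a line, its fitted difference does not give the size.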
